A study of Homo sapiens with 12 samples.

Results

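Platelet-rich plasma (PRP) was compared with no treatment in PE/CA-PJ41 cells, an established line of human oral squamous cell carcinoma, by RNA sequencing of polyadenylated RNA. The comparison used 8 of the study's 12 libraries, 4 from untreated cells (control) and 4 from cells kept with 10% PRP for 48 h. The other 4 libraries, from cells given 10% human plasma for 48 h, are set beside these where they bear on a PRP value. They were also part of the fit, so the spread behind each p-value includes theirs. The labels do not say what the control cells received in place of PRP or how long they were cultured, so time in culture and treatment cannot be told apart. They name neither the donors nor the preparation of the PRP. Whether replicates were separate cultures is not said, so every p-value rests on the spread among libraries alone, and that spread may be technical. A gene was tested where it reached 1 TPM (a transcript's share of all transcripts in a library, scaled to the same sum in all) in 4 or more of the 8 libraries, and 12403 of the 20375 listed genes did so. Values after ± are SD over 4 libraries beside TPM and the standard error beside a log2 change, and "called" means a Benjamini-Hochberg adjusted p under 0.05 over all tested genes with limma on log2(TPM + 1).

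PRP is the fraction of blood plasma in which platelets are concentrated. It holds the platelets' stored growth factors and chemokines together with what plasma carries, such as lipoproteins, retinol bound to its carrier protein, hormones and coagulation proteins. Cells that take up lipoprotein cholesterol reduce the cleavage of the SREBP transcription factors, which drive genes of sterol and fatty acid synthesis. Retinoic acid, made from retinol, acts through nuclear receptors and induces its own degradation, and cytokines of inflammation act largely through NF-kB. In squamous carcinoma, growth factor receptors, basal keratins and the balance of growth against differentiation are the features most often followed.

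The cells carried the transcripts of squamous epithelium. All 13 of 13 epithelial markers passed the filter, with summed levels of 12174 to 13589 TPM in the control libraries and 14849 to 16592 TPM with PRP. Libraries held 36943548 to 41976136 estimated reads, the fewest in PRP replicate 1. Mitochondrially encoded transcripts took 0.191% to 0.969% of reads, least in the library numbered 1 of each group. Those libraries also scored lowest on the second principal component (8.5% of the variance, over the 1000 genes that varied most). The first component (72.9%) placed the control libraries between -14.2 and -13.46 and the PRP libraries between 12.99 and 14.25. In the same genes the mean distance was 13.6 within control, 13.7 within PRP and 30 between the groups. Blood transcripts stayed low: of 14 platelet, 10 erythroid and 20 leukocyte genes, 2, 1 and 4 passed the filter. In each list 5 genes had 0 reads in all 8 libraries, PF4 and HBB among them. Of the platelet genes GP1BB, PPBP and GP1BA had 0 reads in control and up to 18.3, 3 and 2 with PRP. ITGA2B had 30 to 49 reads in control and 23 to 27 with PRP. These 4 were named after their values were seen. The 20 leukocyte genes summed to 11.2 to 12.3 TPM in control and 14.5 to 17 TPM with PRP. Their mean sum went from 11.8 to 15.6 TPM, and the mean of the monocyte gene CD14 alone from 1.79 to 5.49 TPM. Of the 7 genes past the filter only CD14 was called. It was 2.72, 1.40, 1.02 and 2.01 TPM in control and 4.23, 6.27, 6.12 and 5.34 TPM with PRP. The leukocyte transcript PTPRC, named after its values were seen, had 25 to 35 reads in control and 2 to 7 with PRP. These levels moved beside the immune genes below, and their part in those results was not tested. In bulk RNA, more cells with a transcript and more of it per cell cannot be told apart, here or below.

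PRP moved a large share of the transcriptome by small amounts. Of the 12403 genes 6614 were called (53.3%), 2683 higher (21.6%) and 3931 lower (31.7%) with PRP. The excess of lower genes depended on scaling, since lower genes were 59.4% of the calls as deposited and 46.2% (3015 of 6527) after the libraries were centred on their medians. Of the calls 3115 (47.1%) were smaller than 1.25-fold and 2343 (35.4%) lay between 1.25 and 1.5-fold. A log2 change of at least 1 was reached by 207 genes (1.67% of those tested), 118 higher (0.951%) and 89 lower (0.718%). On the log2 scale the middle 50% of genes ran from -0.24 to 0.14, around a median of -0.06, and 90% from -0.59 to 0.54. The 2 groups of libraries did not overlap in 5829 genes (47%), with PRP above in 2352 (19%) and below in 3477 (28%). Abundant transcripts were called higher more often than rare ones. Genes were put in classes of mean level split at 5, 20, 100 and 500 TPM. From the lowest class to the highest 14.9%, 16.9%, 22.7%, 37.7% and 37.5% were called higher. In the same order 27.1%, 33.4%, 33.8%, 27.1% and 30.5% were called lower. Tested on estimated reads instead of TPM, 5947 of the 6614 calls were called in the same direction and 0 in the opposite one, and all 207 of the larger changes were among them. Where a called gene is given library by library below, all 4 PRP libraries lay on one side of all 4 control libraries. Counts of list members below are to be read beside the shares of all genes, 21.6% higher and 31.7% lower.

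**Figure D1:**
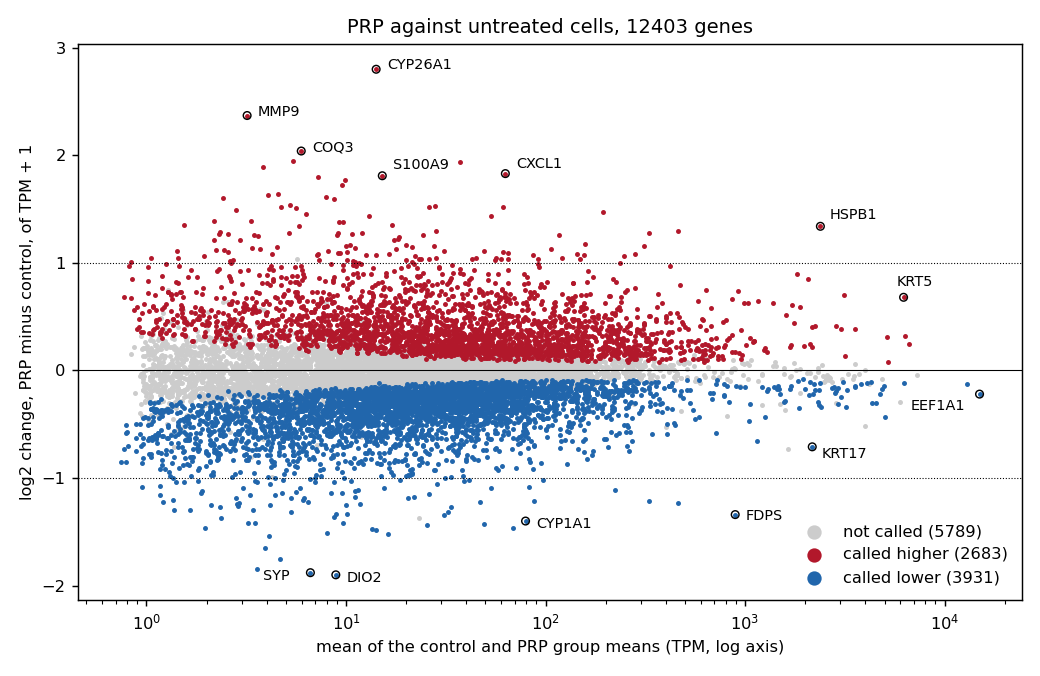
Log2 change of TPM + 1 with PRP against the mean level of each of the 12403 tested genes (log axis), 1 point per gene, with genes called higher in red, called lower in blue and not called in grey. Most coloured points lie within the dotted lines at a log2 change of 1 and -1, and 207 called genes lie beyond them, CYP26A1 and MMP9 highest.

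The 12 largest increases and 12 largest decreases were taken among called genes of at least 5 TPM on average whose groups did not overlap. CYP26A1, a retinoic acid hydroxylase (chromosome 10, 93073475 to 93077885, GRCh38.p14), was 2.06, 2.84, 3.18 and 3.20 TPM in control and 25.1, 29.4, 24 and 23.7 TPM with PRP. The lowest PRP library lay far above the highest control library, a 9.05-fold ratio of means (log2 change 2.80 ± 0.10, adjusted p = 3.62e-10). COQ3, a methyltransferase of coenzyme Q synthesis, was 2.04, 1.87, 1.04 and 1.96 TPM in control and 8.58, 10.9, 11 and 10.2 TPM with PRP (log2 change 2.04 ± 0.13, adjusted p = 2.83e-08). BOLA3, a mitochondrial iron-sulfur cluster factor, was 8.11, 14, 19.1 and 21 TPM in control and 61, 59.4, 61.3 and 55.5 TPM with PRP (log2 change 1.94 ± 0.20, adjusted p = 2.42e-06). For BOLA3 the control libraries differed among themselves by more than 2-fold, yet none came near the PRP libraries. S100A9, a calcium-binding protein of inflamed epithelium, was 6.78, 6.31, 6.5 and 5.23 TPM in control and 22.4, 26.2, 23 and 25.4 TPM with PRP (log2 change 1.81 ± 0.16, adjusted p = 8.42e-07). LRG1, a secreted leucine-rich glycoprotein, went from 3.97 ± 0.369 to 15.9 ± 0.264 TPM, and SPRR2D, a cornified envelope protein with near-identical SPRR2 copies that make its estimate uncertain, from 1.67 ± 0.817 to 9.13 ± 1.82 TPM. The neuropeptide GAL went from 2.74 ± 1.08 to 11.7 ± 1.22 TPM, the chemokine CCL26 from 4.03 ± 1.44 to 15.1 ± 1.82 TPM, TMEM265 from 3.44 ± 0.612 to 12.5 ± 1.06 TPM and the kinase DYRK4 from 2.26 ± 1.06 to 8.18 ± 0.753 TPM. MMP9, described further on, was higher by 2.37 on the log2 scale but averaged under the 5 TPM asked of the genes ranked here.

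Among the largest decreases DIO2, SYP and SCG2 are genes best known from neural and endocrine tissue, while CYP1A1, CYP1B1 and CHAC1 are described with their lists below. DIO2, which activates thyroid hormone, was 9.83, 18.9, 14.8 and 15 TPM in control and 4.07, 2.09, 2.5 and 4.04 TPM with PRP (log2 change -1.90 ± 0.19, adjusted p = 2.05e-06). SYP, a protein of synaptic vesicles, was 11.4, 11.6, 9.83 and 11.2 TPM in control and 2.12, 2.35, 2.45 and 2.12 TPM with PRP (log2 change -1.88 ± 0.10, adjusted p = 9.84e-09). All 4 PRP libraries lay close together for SYP, with a mean 4.87-fold below that of control. Secretogranin SCG2 went from 20.2 ± 1.22 to 6.67 ± 0.906 TPM, the microtubule protein MAP2 from 13 ± 0.849 to 4.48 ± 0.347 TPM and the JNK scaffold MAPK8IP2 from 12.4 ± 0.911 to 3.71 ± 0.498 TPM. ZNF114 was 30.1, 24.7, 22.7 and 21.4 TPM in control and 7.23, 8.68, 7.78 and 8.05 TPM with PRP (log2 change -1.52 ± 0.09, adjusted p = 2.35e-08). RGCC, a cell cycle regulator, was 89.4, 89.5, 54.9 and 56 TPM in control and 25, 24.6, 26 and 26.6 TPM with PRP (log2 change -1.43 ± 0.14, adjusted p = 1.68e-06), with control libraries 1 and 2 well above 3 and 4 and all PRP libraries below them. CXCL14, a chemokine of normal epithelium, was 22.6, 15.7, 9.88 and 10.9 TPM in control and 4.27, 4.62, 4.28 and 5.31 TPM with PRP (log2 change -1.42 ± 0.18, adjusted p = 1.85e-05). KATNBL1 had means of 101 ± 11.6 to 36.1 ± 3.19 TPM. Its log2 change was -1.46 in TPM but -0.91 in reads, and its log2 effective length shifted by 0.50. No gene of these 24 was called between PRP and plasma, where their log2 differences ran from -0.67 to 0.70.

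**Figure D2:**
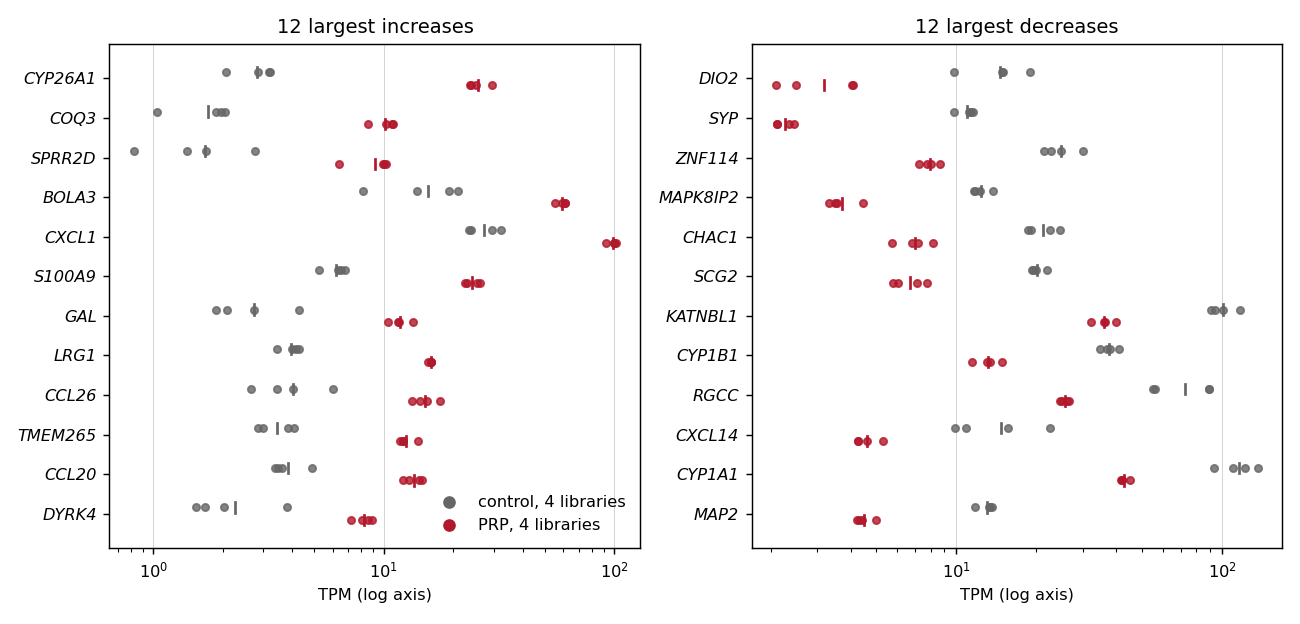
TPM in each of the 4 control (grey) and 4 PRP (red) libraries, on a log axis, for the 12 largest increases and the 12 largest decreases among called genes of at least 5 TPM on average without overlap. Vertical bars are group means, and in every row the colours are apart, as the choice of genes required.

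Sterol synthesis fell along nearly its whole length. Of 21 genes of the pathway 19 were called lower and 0 higher, with a median log2 change of -0.49 against -0.06 over all genes, and their summed level went from 4947 ± 72.9 to 3198 ± 82.8 TPM. FDPS, the farnesyl diphosphate synthase (chromosome 1, 155308866 to 155320665, GRCh38.p14), was 1269, 1241, 1327 and 1287 TPM in control and 518, 491, 512 and 494 TPM with PRP. Its PRP libraries lay within 27 TPM of each other and far below control (log2 change -1.34 ± 0.04, adjusted p = 2.56e-10). IDI1, the isopentenyl diphosphate isomerase upstream of FDPS, was 176, 176, 192 and 185 TPM in control and 108, 106, 112 and 110.0 TPM with PRP (log2 change -0.73 ± 0.04, adjusted p = 4.06e-09). SQLE, the epoxidase that commits squalene to sterols, was 255, 264, 261 and 246 TPM in control and 162, 159.9, 157 and 148 TPM with PRP (log2 change -0.71 ± 0.04, adjusted p = 1.59e-08). PMVK, a phosphomevalonate kinase that was not called and is named after its values were seen, had a log2 change of -0.07.

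The machinery that senses and takes up sterols moved the same way. Of its 15 tested genes 11 fell and 2 rose, or 1 without the libraries numbered 1. STARD4, a sterol carrier, was 117, 113, 112 and 113 TPM in control and 61, 60.7, 59.4 and 56.9 TPM with PRP (log2 change -0.92 ± 0.03, adjusted p = 7.58e-10). SREBF2, the gene of the factor that drives the pathway, was 204, 209, 189 and 184 TPM in control and 126, 117, 111 and 109 TPM with PRP (log2 change -0.76 ± 0.06, adjusted p = 1.52e-07). INSIG1, which holds SREBP in the endoplasmic reticulum, went from 175 ± 3.64 to 128 ± 5.15 TPM (log2 change -0.45 ± 0.05, adjusted p = 2.79e-06). NPC2, which exports cholesterol from lysosomes, went from 1439 ± 26.3 to 1072 ± 51.5 TPM. LXR targets, which are induced when oxysterols accumulate, fell in 7 of 10 cases and rose in 1. ABCG1, a sterol exporter of that list, was 34.5, 30, 23.7 and 25 TPM in control and 14.7, 13.6, 14.5 and 14.4 TPM with PRP (log2 change -0.92 ± 0.09, adjusted p = 2.38e-06). LPCAT3, which remodels phospholipids, went from 57.9 ± 2.11 to 40.5 ± 1.81 TPM, and SMPDL3A, a phosphodiesterase, from 20 ± 1.42 to 13.1 ± 0.796 TPM. The sterol exporter ABCA1 went from 8.10 ± 1.44 to 5.57 ± 0.912 TPM with overlapping groups (log2 change -0.47 ± 0.15, adjusted p = 0.0154), and it was not called without control replicate 1 (log2 change -0.38, adjusted p = 0.0501).

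Fatty acid synthesis fell in 15 of 18 genes and rose in 0 (1 without control replicate 4 or on reads), with a median of -0.42. The lower count was 12 after median centring, and 13 on reads or without the libraries numbered 1. ACLY, which makes cytosolic acetyl-CoA, was 662, 623, 664 and 649 TPM in control and 307, 286, 276 and 243 TPM with PRP (log2 change -1.23 ± 0.08, adjusted p = 4.97e-08). The desaturases FADS1 and FADS3 went from 104 ± 4.58 to 65.1 ± 1.73 TPM and from 73.3 ± 3.65 to 43 ± 0.491 TPM. Genes that oxidise or store fatty acids were mixed, 10 of 23 higher and 7 lower. HADHB, a subunit of the trifunctional protein of beta-oxidation, rose from 72.7 ± 1.21 to 95.1 ± 0.857 TPM (log2 change 0.38 ± 0.03, adjusted p = 2.57e-07), and ACADVL, another of its enzymes, from 94.4 ± 4.01 to 122 ± 0.980 TPM. ETFDH, which passes their electrons to coenzyme Q, fell from 16.1 ± 0.438 to 8.71 ± 0.605 TPM (log2 change -0.82 ± 0.07, adjusted p = 3.48e-07).

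Promoter letters were read from RefSeq (GRCh38.p14) for 10021 of the 12403 tested genes, from 250 bases before to 50 after the start, on both strands. The sterol regulatory element, searched as ATCAC followed by CCCAC, was in 4 of them (0.0399%), 1 of these in the sterol-sensing list and 0 among 16 promoters of sterol synthesis genes. Other forms of the sterol element were not searched. CCAAT, the site of the NF-Y factor that works beside SREBP, was in 12 of 16 sterol synthesis promoters (75%) and in 36.7% of all. Of the 3676 tested genes with CCAAT 19.9% were called higher and 33.3% lower, against 21.7% and 31.7% of all with a promoter. A match is a description of letters, not a binding site. The stretch of 180 bases before the start is shown for SREBF2, with its sterol element in capitals (it overlaps another of the motifs searched), and for FDPS, with its CCAAT letters on either strand in capitals, the genes of the factor and of the deepest fall.
SREBF2, chr22:41832925-41833104, plus strand: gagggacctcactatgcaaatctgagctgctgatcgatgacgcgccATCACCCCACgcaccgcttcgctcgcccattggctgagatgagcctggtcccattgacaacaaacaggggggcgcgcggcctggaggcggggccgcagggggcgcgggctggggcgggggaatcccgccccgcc
FDPS, chr1:155308686-155308865, plus strand: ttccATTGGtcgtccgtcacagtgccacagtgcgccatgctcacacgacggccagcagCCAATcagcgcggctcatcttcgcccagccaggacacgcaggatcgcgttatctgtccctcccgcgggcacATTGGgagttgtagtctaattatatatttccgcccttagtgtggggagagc

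Most genes of the NF-kB list rose. Of 27 NF-kB genes 22 were called higher and 2 lower, with a median log2 change of 0.71. CXCL1, which draws neutrophils (chromosome 4, 73869393 to 73871308, GRCh38.p14), was 23.5, 23.8, 32.1 and 29.4 TPM in control and 102, 100.2, 99.9 and 92.3 TPM with PRP (log2 change 1.83 ± 0.16, adjusted p = 5.26e-07). The PRP libraries differed by 10 TPM at most around a level above 3-fold that of control. CCL20, which draws T helper and dendritic cells, was 3.38, 4.89, 3.49 and 3.61 TPM in control and 12.9, 14.2, 14.7 and 12.1 TPM with PRP (log2 change 1.59 ± 0.12, adjusted p = 1.24e-07). NFKBIA, the inhibitor that NF-kB itself induces, was 120.2, 118, 129 and 116 TPM in control and 196, 198, 192 and 202 TPM with PRP (log2 change 0.70 ± 0.05, adjusted p = 2.01e-07). BCL3, a nuclear co-factor, went from 19.7 ± 1.73 to 38.7 ± 1.93 TPM (log2 change 0.95 ± 0.08, adjusted p = 3.89e-07). The lower members were NFKB2 and PTGS2 (log2 changes -0.56 and -0.39), named after their values were seen, a subunit of the non-canonical pathway and the inducible cyclooxygenase. Of the 17 tested chemokine genes 9 rose and 3 fell, and their summed level went from 215 ± 11.4 to 356 ± 8.13 TPM.

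Of 25 acute phase and complement genes 11 rose, and the number that fell was 1, or 2 without control replicate 3, control replicate 4 or plasma replicate 3. SERPINA3, an antichymotrypsin, was 1.68, 1.84, 1.92 and 1.41 TPM in control and 8.01, 7.27, 7.29 and 7.11 TPM with PRP (log2 change 1.64 ± 0.16, adjusted p = 1.8e-06). LCN2, which binds bacterial siderophores, was 48.8, 42.3, 38.4 and 38.8 TPM in control and 89.8, 83.8, 89.6 and 85.9 TPM with PRP (log2 change 1.04 ± 0.10, adjusted p = 1.68e-06). With S100A9 above, these were products that epithelium secretes in inflammation. None of the 3 overlapped between groups, which the choice of S100A9 required and which held for 47% of all tested genes.

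The letters GGG, any 2 bases and TTTCC, a core of the NF-kB site, were in 11 of 22 promoters of the NF-kB list (50%) and in 2.13% of all promoters read. Over the 213 tested genes whose promoter holds them, 30% were called higher and 28.6% lower, against 21.7% and 31.7% of all genes with a promoter. The 180 bases before the start are shown with these letters in capitals for 3 neighbouring CXC chemokine genes, whose similar sequences also make their read assignment uncertain, for CCL20 and for NFKBIA.
CXCL1, chr4:73869213-73869392, plus strand: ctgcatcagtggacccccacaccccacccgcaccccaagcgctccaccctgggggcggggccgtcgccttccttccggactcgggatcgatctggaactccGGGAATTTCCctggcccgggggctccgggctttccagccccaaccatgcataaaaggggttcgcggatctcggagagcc
CXCL2, chr4:74099196-74099375, minus strand: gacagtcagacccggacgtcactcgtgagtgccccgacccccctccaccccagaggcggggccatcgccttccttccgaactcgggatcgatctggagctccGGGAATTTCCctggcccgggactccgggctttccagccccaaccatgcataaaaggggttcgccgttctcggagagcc
CXCL3, chr4:74038690-74038869, minus strand: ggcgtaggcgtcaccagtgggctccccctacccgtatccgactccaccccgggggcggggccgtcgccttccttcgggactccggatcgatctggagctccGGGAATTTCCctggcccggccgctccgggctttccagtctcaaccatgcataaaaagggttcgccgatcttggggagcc
CCL20, chr2:227813662-227813841, plus strand: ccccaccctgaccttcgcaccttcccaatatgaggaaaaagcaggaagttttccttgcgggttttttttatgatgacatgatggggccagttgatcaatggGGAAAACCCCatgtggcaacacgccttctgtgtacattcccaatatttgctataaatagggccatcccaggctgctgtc
NFKBIA, chr14:35404750-35404929, minus strand: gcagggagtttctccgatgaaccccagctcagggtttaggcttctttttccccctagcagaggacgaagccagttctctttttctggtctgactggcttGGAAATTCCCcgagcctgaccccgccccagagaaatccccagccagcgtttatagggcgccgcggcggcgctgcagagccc
The matched letters lay 78 or 79 bases before the start in the 3 CXCL genes, 79 bases before it in CCL20 and 81 in NFKBIA, counted to their first base. CXCL2 and CXCL3, shown for this likeness and named after their values were seen, had log2 changes of 0.88 and 0.81.

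Interferon response genes were called higher in 22 of 37 cases and lower in 3, or in 1 without control replicate 2 or without PRP replicate 2, with a median of 0.30. OAS1, which senses double-stranded RNA, was 45.7, 40.9, 39.1 and 36.1 TPM in control and 70.5, 64.7, 78.7 and 72.8 TPM with PRP (log2 change 0.81 ± 0.08, adjusted p = 1.81e-06). IFITM3, which blocks viral entry and has close IFITM copies, was 595, 557, 536 and 485 TPM in control and 812, 794, 826 and 818 TPM with PRP (log2 change 0.58 ± 0.06, adjusted p = 3.93e-06). OASL went from 7.48 ± 1.22 to 15.8 ± 1.52 TPM (log2 change 1.0 ± 0.11, adjusted p = 5.38e-06). The lower members were IFIT5, RIGI and IFIH1 (log2 -0.24, -0.24 and -0.22), named after their values were seen, of which the last 2 are sensors of viral RNA. A pair of GAAA with any 2 bases between, the core of the interferon-stimulated element, was in 19 of 29 promoters of the list (65.5%) and in 2.84% of all. Of the 285 tested genes with this pair 26% were called higher and 29.1% lower, against 21.7% and 31.7% of all with a promoter. IFITM3 holds the pair in 2 places, in capitals in the 180 bases before its start.
IFITM3, chr11:320861-321040, minus strand: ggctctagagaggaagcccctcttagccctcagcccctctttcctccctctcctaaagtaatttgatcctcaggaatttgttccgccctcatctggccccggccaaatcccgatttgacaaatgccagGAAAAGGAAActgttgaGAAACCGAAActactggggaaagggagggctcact
Genes of MHC class I presentation were 7 of 17 higher and 6 lower as deposited, a share lower near the 31.7% of all genes. After median centring and on reads they were 10 higher and 3 lower. The lower count was 3 as well without the libraries numbered 1, without control replicate 1 or 2, or without PRP replicate 3. PSMB10, an immunoproteasome subunit, was 42.4, 37.5, 34.3 and 32.2 TPM in control and 64.6, 68.2, 67.3 and 64.5 TPM with PRP (log2 change 0.84 ± 0.07, adjusted p = 2.84e-07), and the chaperones CALR and PDIA3 rose from 583 ± 26.6 to 774 ± 7.02 TPM and from 605 ± 11.6 to 742 ± 12.6 TPM.

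CYP26A1 belongs to a list of retinoid genes, of which more rose than fell. Of 19 tested targets and handling genes 11 were higher and 5 lower, with a median of 0.31. PLAAT4, a retinoid-induced phospholipase, was 41, 37.1, 33.5 and 35.1 TPM in control and 71.7, 74.5, 76.3 and 79.7 TPM with PRP (log2 change 1.03 ± 0.06, adjusted p = 9.9e-09). DHRS3, which reduces retinal back to retinol, was 100.1, 98.7, 96.8 and 90.4 TPM in control and 144, 136, 134 and 136 TPM with PRP (log2 change 0.51 ± 0.04, adjusted p = 2.14e-07). Neither gene overlapped between groups, as was so for 47% of all tested genes. The lower members were the transglutaminase TGM2 (log2 -0.78), ALDH1A1 (-0.36) and the receptors RARB, RARA and RXRA (-0.34, -0.30 and -0.24), named after their values were seen. A single form of the retinoic acid element was searched, AGTTCA repeated after any 5 bases. It was in 0 of 14 promoters of the list and in 1 of all promoters read. Other forms and spacings of the element were not searched, so the count does not tell whether these promoters hold them.

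Targets of the aryl hydrocarbon receptor (AHR), which senses dioxins and tryptophan products, mostly fell, 9 of 12 lower and 3 higher, with a median of -0.51. CYP1A1, its most induced target, was 137, 122, 93 and 110.1 TPM in control and 42, 42.2, 45.2 and 41.7 TPM with PRP (log2 change -1.40 ± 0.09, adjusted p = 2.95e-08). CYP1B1 was 37.9, 40.9, 34.6 and 37 TPM in control and 14.9, 13, 13.4 and 11.5 TPM with PRP (log2 change -1.44 ± 0.08, adjusted p = 8.96e-09). The aldehyde dehydrogenase ALDH3A1 was 536, 484, 397 and 429 TPM in control and 197, 190.1, 197 and 205 TPM with PRP (log2 change -1.21 ± 0.08, adjusted p = 3e-08). The members that rose were NQO1, LRAT and SERPINB2 (log2 0.35, 0.50 and 1.28), the first 2 named after their values were seen, and each belongs to another list as well. AHR's core GCGTG was in 6 of 10 promoters of the list (60%) and in 50.9% of all. Of the 5099 tested genes with this core 20.4% were called higher and 32.4% lower, against 21.7% and 31.7% of all with a promoter. Steroid receptor targets were split, 6 of 14 higher and 3 lower: GLUL, glutamine synthetase, rose from 743 ± 36.5 to 914 ± 22.4 TPM, while FKBP5, a standard glucocorticoid target, was 13, 13, 12.7 and 13.1 TPM in control and 12.8, 13.2, 12.1 and 10.8 TPM with PRP, with overlapping groups and no call (log2 change -0.08 ± 0.06, adjusted p = 0.283). Metallothioneins, which bind zinc and copper, made up all 5 called increases among 11 zinc genes. MT2A was 174, 174, 168 and 171 TPM in control and 243, 259.9, 229 and 232 TPM with PRP (log2 change 0.48 ± 0.05, adjusted p = 3.27e-06). MT1X went from 12.9 ± 1.67 to 29.8 ± 4.81 TPM. MT1M, which passed the filter only through its PRP libraries, went from 0.783 ± 0.453 to 3.59 ± 0.392 TPM. The MT1 copies are similar enough to leave their split uncertain. The 3 lower genes, SLC39A10, SLC39A14 and SLC30A1 (log2 -0.40, -0.34 and -0.32), are zinc transporters named after their values were seen. TFRC, the transferrin receptor, rose from 78.5 ± 3.91 to 118 ± 9.47 TPM (log2 change 0.57 ± 0.07, adjusted p = 1.91e-05), and the ferrireductase STEAP3 fell from 119 ± 7.33 to 81.6 ± 4.92 TPM. They belong to 11 iron genes of which 4 rose and 4 fell, or 2 fell without control replicate 2 or PRP replicate 3.

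**Figure D3:**
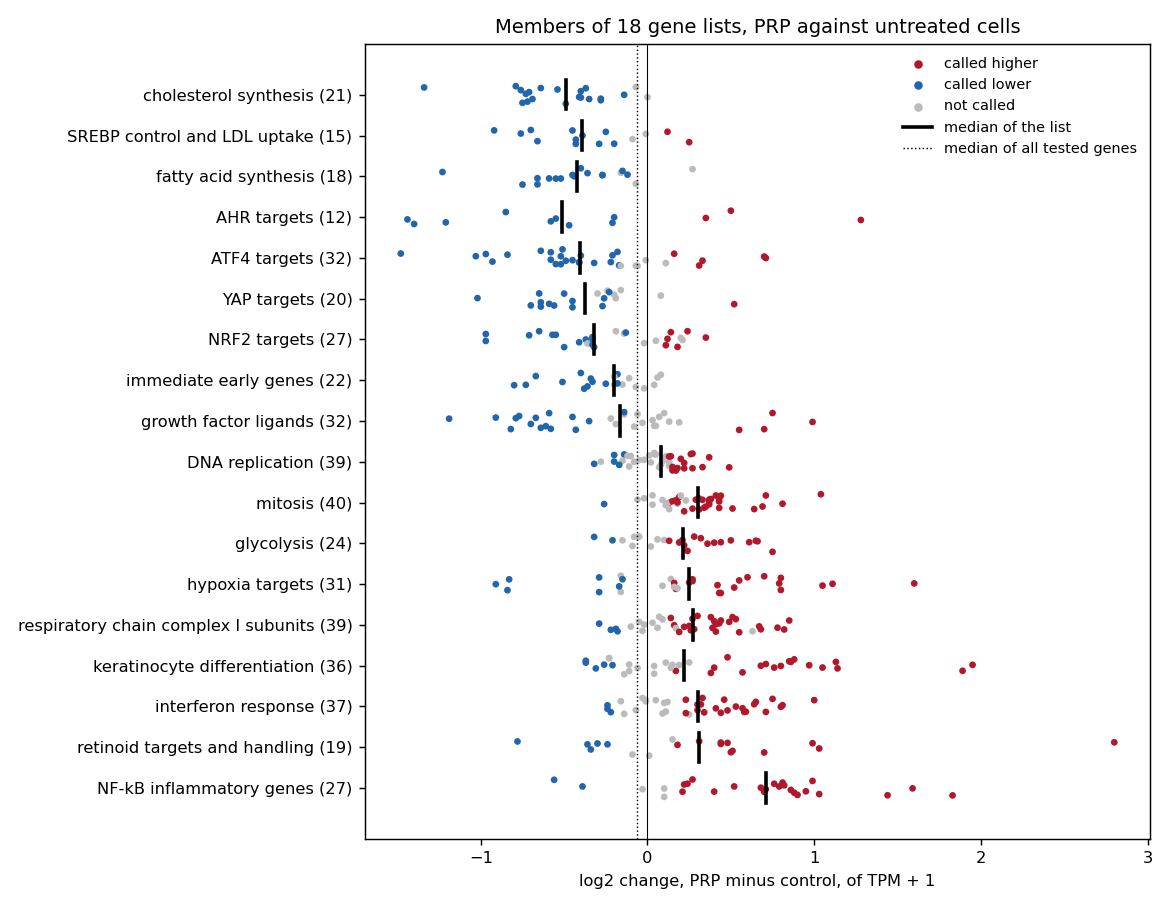
Log2 change with PRP of every tested member (points, number in brackets) of 18 gene lists, coloured red where called higher, blue where called lower and grey where not called. Black bars are list medians, from -0.51 for AHR targets to 0.71 for NF-kB genes, and the dotted line is the median of all genes, -0.06.

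Mitotic genes rose while the gene of the proliferation antigen Ki-67 was not called. Of 40 mitosis genes 28 were higher and 1 lower, with a median of 0.30, and their summed level went from 3438 ± 248 to 4251 ± 176 TPM. Without the libraries numbered 1 the counts were 23 and 1. PLK1, a kinase of mitotic entry (chromosome 16, 23678889 to 23690367, GRCh38.p14), was 53.8, 53.6, 64.4 and 68 TPM in control and 125, 130.4, 120.1 and 118 TPM with PRP (log2 change 1.04 ± 0.07, adjusted p = 6.11e-08). BIRC5, survivin, was 94.7, 99.1, 102 and 104 TPM in control and 178, 187, 170.4 and 167 TPM with PRP (log2 change 0.81 ± 0.04, adjusted p = 5.13e-09). Cyclin CCNA2 was 27.8, 29.9, 31.4 and 32.5 TPM in control and 50.5, 53.9, 50.2 and 46.9 TPM with PRP (log2 change 0.71 ± 0.05, adjusted p = 1.34e-07). All 3, chosen by small adjusted p, had every PRP library above every control library, as did 19% of all tested genes. MKI67 was 34.7, 38.8, 31.2 and 33.7 TPM in control and 48.8, 39.9, 33.7 and 30.3 TPM with PRP, with overlapping groups (log2 change 0.12 ± 0.15, adjusted p = 0.515). The 1 lower gene, HMMR (log2 -0.26), a spindle protein, was named after its values were seen. TTTGAA, the core of the cell cycle homology region, was in 23 of 34 mitosis promoters (67.6%) and in 9.61% of all. CCAAT was in 28 of 34 (82.4%) and in 36.7% of all. Of the 963 tested genes with TTTGAA 24.2% were called higher and 27.6% lower, against 21.7% and 31.7% of all with a promoter. PLK1 is shown with TTTGAA in capitals.
PLK1, chr16:23678709-23678888, plus strand: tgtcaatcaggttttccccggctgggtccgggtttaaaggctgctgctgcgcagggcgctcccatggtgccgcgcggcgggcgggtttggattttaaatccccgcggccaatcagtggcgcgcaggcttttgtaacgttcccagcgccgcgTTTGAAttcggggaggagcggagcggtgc

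Of 39 DNA replication genes 15 were called higher, 5 lower and 19 not called, with a median of 0.08. After median centring they were 19 higher and 0 lower, and on reads 22 and 2. The lower count was 3 without control replicate 3 or PRP replicate 4, and 7 beside 10 higher without the libraries numbered 1. TK1, thymidine kinase, rose from 384 ± 21.4 to 465 ± 21 TPM (log2 change 0.27 ± 0.04, adjusted p = 0.000147), TYMS from 251 ± 12.8 to 303 ± 18 TPM and GINS1 from 32.3 ± 0.929 to 40.9 ± 1.81 TPM. The E2F letters TTTGGCGC were in 8 of 34 of the replication promoters (23.5%) and in 1.12% of all. Of the 112 tested genes with these letters 23.2% were called higher and 37.5% lower, against 21.7% and 31.7% of all with a promoter. Genes that hold or release the G1 phase were 9 of 18 lower and 5 higher, or 3 higher without PRP replicate 1 or 2. After median centring they were 6 lower and 6 higher, and on reads 7 and 6. The inhibitor CDKN2D was 66, 69.6, 76.6 and 78.6 TPM in control and 34.1, 33.8, 34.5 and 31.8 TPM with PRP (log2 change -1.09 ± 0.07, adjusted p = 2.81e-08). CDKN1C went from 10.3 ± 0.596 to 4.70 ± 0.388 TPM. CDKN1A, the p53-induced inhibitor p21, was 112, 113, 122 and 107 TPM in control and 89.9, 83.6, 88 and 85.4 TPM with PRP (log2 change -0.38 ± 0.05, adjusted p = 1.65e-05). RBL1, a pocket protein, rose from 7.46 ± 0.502 to 13.9 ± 1.16 TPM, and cyclin D1, CCND1, fell from 288 ± 13 to 216 ± 15.2 TPM.

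Glycolysis rose in 15 of 24 genes and fell in 2, and the summed level went from 16072 ± 419 to 19966 ± 279.7 TPM. PGAM1, a phosphoglycerate mutase, was 461, 463, 497 and 476 TPM in control and 788, 819, 786 and 788 TPM with PRP (log2 change 0.75 ± 0.03, adjusted p = 2.37e-09). TPI1 was 658, 638, 678 and 696 TPM in control and 1076, 1043, 1062 and 1044 TPM with PRP (log2 change 0.66 ± 0.03, adjusted p = 5.11e-09). LDHA, which makes lactate, was 877, 852, 939 and 939.6 TPM in control and 1430.4, 1404, 1406 and 1410.4 TPM with PRP (log2 change 0.65 ± 0.06, adjusted p = 4.8e-07). The 2 lower genes, ENO2 and ALDOC (log2 -0.32 and -0.21), are isoforms best known from brain, named after their values were seen. Targets of hypoxia-inducible factor went both ways, 18 of 31 higher and 7 lower. CA9, carbonic anhydrase 9, which passed the filter only through its PRP libraries, was 0.722, 0.649, 0.432 and 1.01 TPM in control and 4.29, 4.19, 3.85 and 4.27 TPM with PRP (log2 change 1.60 ± 0.11, adjusted p = 8.9e-08). P4HA1, a collagen prolyl hydroxylase, was 20.5, 20, 21.4 and 20.2 TPM in control and 37.6, 34.4, 34.9 and 39.3 TPM with PRP (log2 change 0.80 ± 0.05, adjusted p = 4.97e-08). VEGFA, the angiogenic factor of the same list, was 70.2, 70.1, 79.9 and 75.9 TPM in control and 40.9, 41.3, 39.7 and 34.5 TPM with PRP (log2 change -0.91 ± 0.07, adjusted p = 2.38e-07). The core of that factor's site, ACGTG, was in 13 of 25 of these promoters (52%) and in 26.8% of all. Of the 2689 tested genes with ACGTG 21.7% were called higher and 32.3% lower, against 21.7% and 31.7% of all with a promoter.

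Most subunits of 3 nuclear-encoded respiratory chain families rose. Complex I subunits were 25 of 39 higher and 4 lower, ATP synthase subunits 14 of 18 higher and 0 lower, and cytochrome c oxidase subunits 9 of 12 higher and 0 lower. Their summed levels went from 6110.4 ± 166 to 7221 ± 80.7 TPM, from 4700.0 ± 107 to 5404 ± 46.6 TPM and from 4534 ± 179 to 5273 ± 118 TPM. Mitochondrial ribosomal proteins were 38 of 77 higher and 9 lower. Of the 13 mitochondrially encoded transcripts 0 were called, with summed levels of 10897 to 36257 TPM in control and 7359 to 29059 TPM with PRP. The share of reads from them ran from 0.287% to 0.969% over the control libraries and from 0.191% to 0.731% over the PRP libraries. For each replicate number this share was lower with PRP than in control. Without control replicate 1, 2 of the 13 were called lower, and with a term for replicate number in the fit 7 were. Cytosolic ribosomal proteins went the other way, 43 of 82 lower and 4 higher, but 14 and 6 after median centring and 26 and 7 on reads.

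Genes of the ATF4 response, which supplies amino acids under stress, were lower in 22 of 32 cases and higher in 5, with a median of -0.41. CHAC1, which degrades glutathione, was 24.5, 22.6, 18.6 and 19.1 TPM in control and 8.20, 6.84, 7.16 and 5.72 TPM with PRP (log2 change -1.48 ± 0.14, adjusted p = 9.53e-07). ASNS, asparagine synthetase, was 57.1, 45.6, 52.1 and 47.8 TPM in control and 27.8, 26.5, 26.3 and 23.5 TPM with PRP (log2 change -0.93 ± 0.08, adjusted p = 3.12e-07). DDIT3, the transcription factor CHOP, was 16.5, 15.7, 12.7 and 13.4 TPM in control and 6.89, 6.47, 6.04 and 6.99 TPM with PRP (log2 change -1.03 ± 0.09, adjusted p = 4.24e-07). SLC3A2, the heavy chain of several amino acid transporters, went from 525 ± 9.49 to 368 ± 23.7 TPM. Over all 212 tested solute carrier genes 82 fell and 30 rose, beside 31.7% lower and 21.6% higher of all genes. NRF2 targets, the antioxidant response, fell in 14 of 27 cases and rose in 6. The pentose phosphate enzyme PGD went from 339 ± 6.76 to 261 ± 11.1 TPM, and malic enzyme ME1, which also makes NADPH, from 53.5 ± 1.82 to 36.3 ± 1.81 TPM. Chaperones of the endoplasmic reticulum were divided, 9 of 21 higher and 7 lower, a share lower near the 31.7% of all genes. The sensor ATF6 was at 23.5, 24, 20.7 and 20.4 TPM in control and 37.7, 39.8, 35.7 and 37.7 TPM with PRP (log2 change 0.74 ± 0.06, adjusted p = 1.67e-07).

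Platelets release ligands of many receptors, and genes of such receptors went both ways. Of 31 tested, 11 fell and 6 rose, shares near the 31.7% lower and 21.6% higher of all genes. On reads 11 rose and 10 fell, and 3 rose without the libraries numbered 1. F2R, the thrombin receptor PAR1, was 29.6, 30.1, 25.6 and 27.2 TPM in control and 17.2, 16.2, 15.8 and 14.7 TPM with PRP (log2 change -0.78 ± 0.07, adjusted p = 4.64e-07). TGFBR2, the ligand-binding TGF-beta receptor, was 52.2, 53.9, 51.6 and 52.5 TPM in control and 45.4, 43.7, 42.2 and 42.4 TPM with PRP (log2 change -0.27 ± 0.04, adjusted p = 5.14e-05). CD44, a receptor for hyaluronan, went from 511 ± 21.5 to 365 ± 24.1 TPM. EGFR was 143, 139, 85.6 and 94.1 TPM in control and 138, 114, 89.4 and 86.1 TPM with PRP (log2 change -0.10 ± 0.19, adjusted p = 0.679), with libraries 1 and 2 above 3 and 4 in both groups. MET, the HGF receptor, was 66.2, 65.9, 58.8 and 56.1 TPM in control and 66.4, 64.4, 60.3 and 57.5 TPM with PRP (log2 change 0.01 ± 0.07, adjusted p = 0.903), again with overlapping groups. Growth factor genes of the cells themselves fell in 15 of 32 cases and rose in 4: VEGFA fell as given above, BMP7 rose from 30.9 ± 1.39 to 52.9 ± 3.47 TPM (log2 change 0.75 ± 0.05, adjusted p = 8.47e-08) and CSF1, the macrophage factor, from 7.63 ± 0.288 to 16.2 ± 2.13 TPM (log2 change 0.99 ± 0.09, adjusted p = 9.29e-07).

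Genes that report growth factor signalling were set beside the shares over all genes, 31.7% lower and 21.6% higher. Of 20 ERK output genes 8 fell and 2 rose, or 4 rose without PRP replicate 4, after median centring or on reads, and 1 without the libraries numbered 1. Of 22 immediate early genes 12 fell and 0 rose. KLF10, a TGF-beta-induced factor, was 59.4, 65.3, 64.4 and 57.9 TPM in control and 37.9, 38.8, 40.9 and 35.9 TPM with PRP (log2 change -0.67 ± 0.06, adjusted p = 8.75e-07). JUN was 42.4, 46.9, 36.9 and 38.2 TPM in control and 29.6, 30.5, 27.4 and 26.8 TPM with PRP (log2 change -0.51 ± 0.07, adjusted p = 6.98e-05). EGR3 went from 8.93 ± 1.13 to 4.69 ± 0.630 TPM, and SPRED3, an inhibitor of the pathway that passed the filter only through its control libraries, from 1.94 ± 0.323 to 0.397 ± 0.183 TPM. EMP1, a membrane protein, was the larger of the increases, from 127 ± 17.3 to 207 ± 6.89 TPM (log2 change 0.71 ± 0.07, adjusted p = 2.98e-06). YAP targets, which follow cell stretch and density, were lower in 13 of 20 cases and higher in 1, with a median of -0.38. AXL, a receptor kinase, went from 52.1 ± 2.86 to 32.8 ± 2.37 TPM. GADD45A was 54.1, 53.8, 57 and 58.7 TPM in control and 24.5, 28.7, 29.1 and 26.2 TPM with PRP (log2 change -1.02 ± 0.06, adjusted p = 1.59e-08). The matricellular CCN1 was 106, 115, 107 and 105 TPM in control and 69.6, 74.2, 64.8 and 57.1 TPM with PRP (log2 change -0.70 ± 0.06, adjusted p = 9.29e-07). SRF cytoskeleton targets were 11 of 23 lower and 5 higher, but 8 and 6 after median centring and 7 and 6 on reads, with myosin light chain MYL9 going from 19.7 ± 4.32 to 10.2 ± 0.879 TPM and the tropomyosins TPM2 and TPM3 from 184 ± 4.69 to 226 ± 4.25 TPM and from 517 ± 37.3 to 717 ± 17.6 TPM. TGF-beta targets were 9 of 26 lower and 3 higher, a share lower near that of all genes.

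Coagulation and fibrinolysis genes went both ways, 7 of 23 higher and 10 lower, or 6 lower without PRP replicate 4 and 8 higher against 7 lower after median centring. F3, tissue factor, was 608, 635, 683 and 662 TPM in control and 480.4, 485, 492 and 434 TPM with PRP (log2 change -0.45 ± 0.05, adjusted p = 5.09e-06). SERPINB2, the inhibitor PAI-2, was 2.44, 3.13, 2.16 and 2.71 TPM in control and 7.04, 8.65, 8.31 and 7.0 TPM with PRP (log2 change 1.28 ± 0.10, adjusted p = 1.56e-07). GAS6, a vitamin K-dependent ligand, fell from 106 ± 5.23 to 59.8 ± 1.80 TPM. Thrombomodulin THBD was 7.15, 8.92, 11.6 and 10.5 TPM in control and 9.45, 10.7, 9.54 and 7.92 TPM with PRP, with overlapping groups (log2 change -0.01 ± 0.13, adjusted p = 0.965). PDPN, podoplanin, the ligand of the platelet receptor CLEC-2, was 100.5, 97.7, 86 and 89.1 TPM in control and 130.5, 133, 130.1 and 116 TPM with PRP (log2 change 0.45 ± 0.06, adjusted p = 1.66e-05), so that its lowest PRP library lay above the highest control library.

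Genes of keratinocyte differentiation rose in 18 of 36 cases and fell in 5, a lower count that was 8 without control replicate 1 and 3 without control replicate 3, control replicate 4 or PRP replicate 4. SPRR1B, a cornified envelope precursor, was 55.3, 65, 74.1 and 73.2 TPM in control and 139, 163, 142 and 143 TPM with PRP (log2 change 1.13 ± 0.08, adjusted p = 8.71e-08). SLPI, a secreted protease inhibitor, was 43.7, 45.7, 43.3 and 46.3 TPM in control and 75.6, 73.2, 71.6 and 87 TPM with PRP (log2 change 0.76 ± 0.05, adjusted p = 7.36e-08). Both basal keratins rose. KRT5 was 4719.6, 4531, 4832 and 5055 TPM in control and 8295, 7839.8, 7299 and 7275 TPM with PRP (log2 change 0.68 ± 0.05, adjusted p = 1.38e-07). KRT14 was 2155, 2326, 2668 and 2711 TPM in control and 3369, 3424, 3228 and 3069.8 TPM with PRP (log2 change 0.41 ± 0.07, adjusted p = 0.00012). KRT17, a keratin of wounds and tumours, was 2565, 2947, 2621 and 2652 TPM in control and 1683, 1637, 1616 and 1651 TPM with PRP (log2 change -0.71 ± 0.04, adjusted p = 1.05e-08). The lineage factor TP63 was 90.8, 101, 99.5 and 96.3 TPM in control and 103, 98.6, 94.7 and 91.2 TPM with PRP, with overlapping groups (log2 change -0.00 ± 0.06, adjusted p = 0.99). TXNIP, an inhibitor of thioredoxin that rises with glucose, went from 173 ± 25.5 to 150.4 ± 9.23 TPM with overlapping groups (log2 change -0.19 ± 0.08, adjusted p = 0.0635), and it was called lower without control replicate 3 or control replicate 4 (log2 changes -0.26 and -0.25). Over the 20 tested keratins 8 rose and 5 fell, and their summed level went from 16451 ± 742 to 21859.9 ± 818 TPM.

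Junction genes were 9 higher and 9 lower of 32, shares near those of all genes, and 11 and 7 after median centring or 13 and 7 on reads. TJP3, a tight junction scaffold, was 19, 16.9, 15.1 and 15.9 TPM in control and 41.1, 37.2, 33 and 43.4 TPM with PRP (log2 change 1.16 ± 0.08, adjusted p = 8.47e-08), and the gap junction gene GJA1 went from 24.6 ± 1.44 to 16 ± 0.330 TPM. The tight junction claudin CLDN7 went from 103 ± 2.83 to 144 ± 4.87 TPM. Genes of the epithelial-mesenchymal transition were 10 of 19 higher and 4 lower, or 2 lower without control replicate 2 or PRP replicate 3. SPARC rose from 183 ± 8.31 to 272 ± 15.1 TPM (log2 change 0.57 ± 0.05, adjusted p = 2.2e-07), TGFBI from 274 ± 17.4 to 347 ± 13.4 TPM and VIM, vimentin, was 55.3, 45.4, 43 and 39.6 TPM in control and 69.4, 72.6, 65.6 and 62.5 TPM with PRP (log2 change 0.56 ± 0.08, adjusted p = 6.08e-05). Of 3 fibroblast transcripts that passed the filter 1 was called, LUM, which fell from 8.40 ± 0.697 to 3.42 ± 0.250 TPM. Basement membrane and integrin genes were 10 of 28 lower and 4 higher (7 higher after median centring and on reads), a share lower near the 31.7% of all genes. COL7A1, the collagen of anchoring fibrils, was 26.9, 30.5, 31.9 and 33.9 TPM in control and 14.7, 10.9, 14.6 and 12.2 TPM with PRP (log2 change -1.18 ± 0.10, adjusted p = 3.78e-07). The basement membrane collagen COL4A6 went from 10.3 ± 0.926 to 6.48 ± 0.610 TPM. Collagens in all were 11 of 21 lower and 2 higher, or 1 higher without control replicate 1 or 2 or PRP replicate 1 or 2. Matrix proteases and their inhibitors were 11 of 28 higher and 6 lower, with the membrane protease MMP15 going from 4.69 ± 0.629 to 13.8 ± 1.38 TPM and cathepsin CTSB from 451 ± 38.5 to 705 ± 12 TPM. Notch genes were 5 of 21 higher and 5 lower, beside 21.6% higher and 31.7% lower of all genes. They were 8 and 4 after median centring and 8 and 3 on reads. Among them HES1 went from 53.4 ± 1.90 to 63.7 ± 1.90 TPM (log2 change 0.25 ± 0.04, adjusted p = 9.43e-05), HES2 from 9.07 ± 1.34 to 18.3 ± 1.80 TPM and the fringe enzyme RFNG from 35.1 ± 3.41 to 26.5 ± 1.35 TPM. Of 18 BMP and ID genes 7 fell and 2 rose, beside the same shares of all genes, with ID3 falling from 180.3 ± 4.98 to 139 ± 3.30 TPM (log2 change -0.38 ± 0.03, adjusted p = 3.48e-07) and BMP4 from 33.1 ± 2.60 to 20.8 ± 1.63 TPM.

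Ranked by TPM gained or lost, a ranking made after the values were seen, the largest shifts were in abundant transcripts. Genes higher on average gained 79361 TPM together, 7.94% of a library's total. KRT5 gained 2893 TPM, HSPB1, a small heat shock protein, gained 2068 TPM from 1352 ± 154 to 3419 ± 167 TPM (log2 change 1.34 ± 0.07, adjusted p = 9.53e-09), and KRT19 gained 1494 TPM. GAPDH and ACTB, often used as unchanging references, rose from 5639 ± 167 to 7026 ± 206 TPM (log2 change 0.32 ± 0.03, adjusted p = 2.86e-06) and from 6071 ± 183 to 7226 ± 367 TPM (log2 change 0.25 ± 0.04, adjusted p = 0.000279). The water and glycerol channel AQP3 rose from 1269 ± 122 to 2360.2 ± 115 TPM (log2 change 0.90 ± 0.06, adjusted p = 3.46e-08). On the other side the elongation factor EEF1A1 fell from 16102 ± 889 to 13838 ± 530.4 TPM (log2 change -0.22 ± 0.04, adjusted p = 0.000683), TPT1 from 5754 ± 106 to 4267 ± 264 TPM, KRT17 as given above and the ferritin chain FTH1 from 13529 ± 202 to 12398 ± 638 TPM (log2 change -0.13 ± 0.04, adjusted p = 0.0214). FTH1 was not called on reads (adjusted p = 0.464), and a TPM share can fall because other shares grow.

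Few of these changes separated PRP from plasma. Both treatments were compared with the same 4 control libraries, so their changes are not independent and are given side by side. The direct contrast called 8 genes (0.0645%), all higher with PRP (11 higher and 4 lower with only those groups in the fit) and 2 of them (0.0161%) by at least 1 on the log2 scale, while 989 had an unadjusted p under 0.05. Of the 207 genes changed by at least 1 on the log2 scale against control, 2 were called between PRP and plasma, MMP9 and ECM1. Among the leading genes above, the log2 change was 2.80 with PRP and 2.88 with plasma for CYP26A1, -1.34 and -1.50 for FDPS, 1.83 and 1.87 for CXCL1, -1.40 and -1.21 for CYP1A1, and 1.04 and 0.92 for PLK1. MMP9, a gelatinase that passed the filter only through its PRP libraries, was 0.427, 0.287, 0.285 and 0.393 TPM in control and 6.57, 7.37, 5.52 and 4.72 TPM with PRP, beside 2.24, 2.86, 2.46 and 1.60 TPM with plasma. Its levels rose from control to plasma to PRP without overlap at either step, by 2.37 with PRP and 1.27 with plasma against control (log2 PRP minus plasma 1.10 ± 0.14, adjusted p = 0.00509). ECM1, an extracellular matrix protein of differentiating epithelium, was 28.4, 28.9, 29.7 and 27.4 TPM in control and 63.9, 70, 55.9 and 53 TPM with PRP, beside 44.2, 46, 42.7 and 44.4 TPM with plasma (0.44 ± 0.07, adjusted p = 0.0433). S100A2, a p63-regulated calcium-binding protein, was 1450.4, 1349, 1545 and 1536 TPM in control and 2685, 2519.5, 2875 and 2542 TPM with PRP, beside 1895, 2070.3, 1966 and 2112 TPM with plasma (0.40 ± 0.05, adjusted p = 0.00882). For 3 sterol genes the PRP libraries lay between those of plasma and control. HMGCS1, which makes HMG-CoA, was 147, 150.0, 143 and 139 TPM in control and 123, 119, 123 and 112 TPM with PRP, beside 99.5, 91.1, 92.4 and 93.1 TPM with plasma (0.34 ± 0.04, adjusted p = 0.00509). CYP51A1 was 159, 152, 149.7 and 147 TPM in control and 145, 138, 138 and 131 TPM with PRP, beside 114, 103, 108 and 105 TPM with plasma (0.36 ± 0.04, adjusted p = 0.00509), and its fall against control was not called on reads (log2 change -0.06, adjusted p = 0.134). ACAT2, a thiolase that feeds the pathway, went from 335 ± 7.92 to 254 ± 6.04 TPM with PRP, beside 217, 225, 223 and 222 TPM with plasma (0.19 ± 0.03, adjusted p = 0.0325), a call lost under 13 of 24 alternatives. The remaining calls were ENSG00000283977, listed without a symbol, and CYP26B1, a paralog of CYP26A1 named after its values were seen, with 2.43 ± 0.776 to 2.26 ± 0.914 TPM and 11.1 ± 0.276 to 11.2 ± 1.30 TPM from control to PRP and no call there (ENSG00000283977 lost its call under 5 alternatives), beside 0.156 ± 0.126 and 7.92 ± 0.350 TPM with plasma. ECM1 was likewise not called under 13 of 24 alternatives, CYP26B1 under 16, S100A2 under 3, and HMGCS1 and MMP9 under 1 each, while CYP51A1 was called under all 24. With the 3 libraries numbered 1 left out CYP51A1 was the 1 gene called, and the difference of MMP9 was 1.06 (adjusted p = 0.0999). Leaving out 1 library gave 14 without control replicate 1, 13 without control replicate 3, 5 without plasma replicate 2 or PRP replicate 3, and 4 without plasma replicate 4 or PRP replicate 2.

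**Figure D4:**
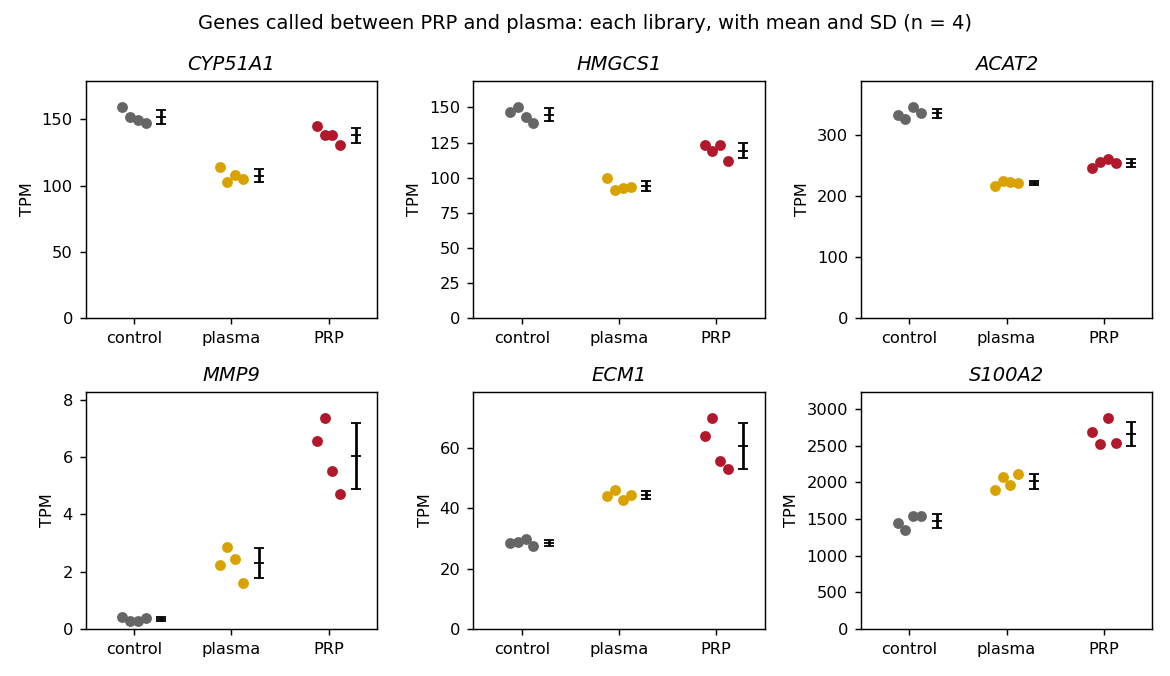
TPM of 6 genes called between PRP and plasma in each library of control (grey), plasma (yellow) and PRP (red), with the group mean and SD (n = 4) in black and axes from 0. The sterol genes CYP51A1, HMGCS1 and ACAT2 are lowest with plasma, and MMP9, ECM1 and S100A2 are highest with PRP.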

How the data were processed

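Polyadenylated RNA of 12 libraries was sequenced (Watchmaker mRNA kit after RNeasy extraction, per the labels' protocols). The authors deposited, per the file headers, TPM and estimated read counts for each of 20375 genes in each library. Salmon and hg38 are named, without a version, per the submitters' processing notes, and they do not say if reads were counted by strand, so antisense and overlapping genes cannot be told apart. The deposited values are written with decimal commas and were read as numbers before use.

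Genes with at least 1 TPM in 4 or more of the 8 control and PRP libraries were tested on log2(TPM + 1) with limma 3.58.1 in R 4.3.3, with a mean-variance trend, all 12 libraries, 1 term per group and 9 degrees of freedom left for the spread. Two-sided p-values were adjusted by Benjamini-Hochberg over all 12403 genes, and the threshold was 0.05. With a pseudocount of 1, log2 changes of genes of a few TPM are understated. The scripts were tested on simulated data.

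The genes named were the 12 largest increases and decreases of called genes with a mean of at least 5 TPM and no overlap, up to 3 called genes per list by adjusted p, up to 6 genes called between PRP and plasma, and a set of 20 genes of interest. A few genes of these sets are not reported here. The gene lists and this comparison were chosen with earlier results of these data known. Alternatives changed the pseudocount, the filter, the scaling, the unit (reads by voom), the libraries and the variance model. Gene positions and promoter sequences are from RefSeq, GRCh38.p14.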

Additional observations from a re-analysis of the deposited data

Results flagged for a closer look

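Plasma and PRP differed in their change against the shared control libraries for genes called in the direct contrast. The log2 difference, PRP minus plasma, was 1.46 for ENSG00000283977, 1.10 for MMP9, 0.44 for ECM1, 0.40 for S100A2, 0.36 for CYP51A1, 0.34 for HMGCS1 and 0.19 for ACAT2.

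In some groups of 4 libraries the highest or lowest value stood apart, measured as its gap to the nearest other library over the whole range, when it passed Dixon's 95% limit for 4 values. This held for 14 of the 282 groups examined, where chance alone gives 14.1 on average (1 in 20). PRP replicate 4 stood apart for LRG1 (0.944, at 15.5 TPM), SPRR2D (0.934, at 6.4 TPM), AXL (0.904, at 29.3 TPM) and TMEM265 (0.849, at 14.1 TPM). PRP replicate 2 stood apart for PGAM1 (0.939, at 819 TPM) and SPRR1B (0.831, at 163 TPM), PRP replicate 1 for TPM2 (0.865, at 233 TPM) and FADS1 (0.832, at 67.7 TPM), and PRP replicate 3 for CYP1A1 (0.860, at 45.2 TPM). Among control libraries it was replicate 3 for ETFDH (0.885, at 15.5 TPM) and FKBP5 (0.875, at 12.7 TPM), replicate 1 for MAP2 (0.848, at 11.8 TPM) and replicate 2 for CCL20 (0.848, at 4.89 TPM). Total estimated reads stood apart in PRP replicate 1 (0.979, at 36943548 reads). The groups of the called genes among these stayed apart.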

How the results depend on the processing

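The count of genes called between PRP and control stayed within 1.5 times its value under every alternative run. It was 5979 to 6574 with 1 library left out, and 6376 without the plasma libraries in the fit. Genes with a log2 change of at least 1 numbered 434 with a pseudocount of 0.1, 60 with a pseudocount of 5, 451 on reads by voom and 454 on length-adjusted reads by voom, and 207 to 224 with 1 library left out. Genes called between PRP and plasma numbered 4 with no filter, 15 with only those groups in the fit (4 of them lower with PRP), 4 without the trend, 1 without replicate 1 in every group, and 4 to 14 with 1 library left out. Of the 127 genes named for the comparison of PRP with control and called in it, 126 kept call and direction under every alternative that tested them, the exception being ABCA1. The filter at 5 TPM left 5 of them untested (CD14, SPRED3, CA9, MT1M and MMP9). Among genes not called the sign of the log2 change turned for some. With 1 library left out it ran from -0.23 to 0.01 for EGFR (highest without control replicate 1), from -0.03 to 0.05 for MET (below 0 without control replicates 3 or 4 or PRP replicates 1 or 2, at -0.01, -0.03, -0.02 and -0.01) and from -0.13 to 0.08 for THBD. After median centring, on reads and on length-adjusted reads it was 0.06, 0.06 and 0.05 for THBD. TP63 was called on reads (log2 change 0.09). List counts were within 1.5 times in 3141 of 3264 recomputations. More members were higher than lower after median centring for coagulation (8 against 7), and on reads for receptors as given above. The cause of these shifts was not tested.

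Same-numbered control and PRP libraries had correlations of their deviations of 0.172, 0.068, 0.135 and 0.035. PRP replicate 1 had -0.161 and -0.169 with control replicates 3 and 4. PRP replicate 3 had -0.117 and -0.159 with control replicates 1 and 2. The other values between different numbers ran from -0.081 to 0.148. The reported fit held no term for the number, and whether it marks a pairing or a batch was not tested. A replicate block called 7071 genes between PRP and control, 208 of them past a log2 change of 1, and 9 between PRP and plasma. With it 7 of 13 mitochondrially encoded transcripts were called lower. Control replicate 4 correlated best with PRP replicate 3 (0.142). Genes of a few TPM are limited by depth: 1 TPM is few reads in a short transcript, and no interval from counting was computed.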
